A study of Mus musculus with 10 samples.

Results

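Growth hormone and the insulin-like growth factors (IGFs) form a hormonal axis that drives body growth. The genes described here are 10 members of that axis, namely the ligands *Ghrh*, *Gh*, *Igf1* and *Igf2*, the receptors *Ghr*, *Igf1r* and *Igf2r*, and the IGF binding proteins *Igfbp2*, *Igfbp3* and *Igfbp5*. They were taken by gene symbol from a table of 18444 genes, and all 10 were found in it. The table covers whole brains taken at postnatal day 3 (P3) from 10 male mice of the C57BL/6N strain. The HT group had 5 mice heterozygous for *Arid1b* and the WT group had 5 wild-type mice, with 1 library from each mouse and no treatment named in the labels of either group. *Arid1b* encodes a subunit of the BAF chromatin remodelling complex. HT mice carry 1 copy that was edited in the germline at exon 5 by a deletion with insertion of TT, which the study describes as truncating the protein. HT1 to HT5 and WT1 to WT5 below name the libraries by group and replicate.

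In the textbook view, GHRH from the hypothalamus releases growth hormone from the pituitary, and growth hormone acts through its receptor, GHR, to raise IGF1 made by the liver and by many other tissues. Both IGF1 and IGF2 signal through IGF1R, whereas IGF2R, which also carries mannose-6-phosphate-tagged enzymes to lysosomes, removes IGF2. In the developing brain IGF1 is made largely by neurons and glia, IGF2 is known mainly from the choroid plexus, the meninges and vessels, and the binding proteins hold IGFs in the tissue and control their access to the receptor.

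No member of the axis passed the test for a difference between HT and WT. Of the 9 members whose mean passed the minimum of 10 normalised read counts, 0 passed an adjusted p of 0.05 and 0 had an unadjusted p under 0.05 (limma with Benjamini-Hochberg adjustment over 17020 genes). Over all genes tested the shares were 0.0% and 3.41%. The groups overlapped in their values for all 10 members, while 0.629% of all genes tested had groups that did not overlap. Of the 9 members 7 had a log2 fold change below 0, as did 53.6% of all genes tested, and their median was -0.059 beside -0.0074 for all genes tested. *Arid1b* itself, read first as a check of the labels, lay at 1505 to 2372 normalised read counts in HT and at 3108 to 3597 in WT, and HT held 63.0% of the WT mean. Its log2 fold change was -0.68, with a limma p of 2.3e-05 before adjustment and an adjusted p of 0.390 over all genes. An exact permutation test, which is not adjusted, gave p = 0.00794, the lowest value open to 10 libraries in groups of 5. Without library HT4, described below, the log2 fold change was -0.57 (limma adjusted p = 2.5e-04).

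The totals of the table ranged from 27.2 M to 29.03 M normalised read counts per library (M, 1000000). One library, HT4, stood apart from the others. It took a weight of 0.171 in a fit with library weights, against 0.858 to 1.52 for the other 9 libraries, and lay at 53.9 on the first principal component against -23.4 to 9.81. Fits with and without HT4 are given for *Igf1*, *Igf2*, *Igf1r*, *Igf2r* and the 3 binding proteins. For other genes a fit without HT4 is given only where stated. Markers of brain cells were present in every library, with 13 of 13 markers read and their sum between 148126 and 168891 normalised read counts.

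The value of a gene pools all its transcripts, which matters most for *Igf2*. On GRCm38 the gene spans chr7:142650766-142666816 on the minus strand, with 7 coding transcripts in GENCODE M21 and 4 start windows in RefSeq (GRCm38.p6) that lie up to 9320 bases apart. The sequences upstream of 3 of these starts are shown to let the starts be told apart, since the 4 were counted as 1 gene. The window of the remaining start lies within annotated exons and is not shown. Letters are lower case, 5′ to 3′ on the minus strand, and capitals mark a GC box, GGGCGG or its reverse complement CCGCCC. The windows are chr7:142666817-142667066 for start 1, chr7:142661306-142661521 for start 2 and chr7:142657497-142657746 for start 4, with starts numbered in the direction of transcription.
Igf2 start 1: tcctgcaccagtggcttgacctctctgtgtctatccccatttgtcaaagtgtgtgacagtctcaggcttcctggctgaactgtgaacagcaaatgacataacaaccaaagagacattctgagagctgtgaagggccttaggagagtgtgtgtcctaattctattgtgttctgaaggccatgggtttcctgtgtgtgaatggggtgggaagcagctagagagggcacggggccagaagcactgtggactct
Igf2 start 2: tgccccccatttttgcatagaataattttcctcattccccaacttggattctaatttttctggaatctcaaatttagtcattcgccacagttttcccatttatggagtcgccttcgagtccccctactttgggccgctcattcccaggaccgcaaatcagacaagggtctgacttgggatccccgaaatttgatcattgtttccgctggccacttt
Igf2 start 4: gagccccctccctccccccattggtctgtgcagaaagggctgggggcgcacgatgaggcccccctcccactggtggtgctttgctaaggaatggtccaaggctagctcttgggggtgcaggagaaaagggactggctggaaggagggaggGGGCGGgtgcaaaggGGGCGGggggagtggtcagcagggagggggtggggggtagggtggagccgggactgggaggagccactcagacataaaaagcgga
The window of start 4 held 2 GC boxes and those of starts 1 and 2 held 0. A TATA box, searched as TATAAA or its reverse complement TTTATA, was found in 0 of the 3. The G and C share was 66.0% before start 4, 50.8% before start 1 and 45.8% before start 2.

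*Igfbp2* (chr1:72824503-72852474, plus strand) and *Igfbp5* (chr1:72857932-72874884, minus strand) are neighbours that face each other, with 5457 bases between their ends. Their upstream windows are shown as those of a pair of neighbours. HT4 was at 161% of the mean of the other HT libraries for *Igfbp2* and at 82.8% for *Igfbp5*. The longest coding transcripts of the pair also differ, with 1307 and 6006 bases. HT4 was low for *Igf1r* as well (11409 bases, 63.7%), but high for *Igf2* (4722 bases, 147%). In a fit of all libraries with a length trend removed, the standard error of the log2 fold change changed for each gene. It went from 0.12 to 0.084 for *Igfbp2*, from 0.074 to 0.050 for *Igfbp5* and from 0.11 to 0.043 for *Igf1r*. For *Igf2* it went up, from 0.12 to 0.14. The part of sequence or length in the HT4 values themselves was not tested. The windows are chr1:72824230-72824479 and chr1:72874885-72875115, each on the strand of its gene and with GC boxes in capitals.
Igfbp2 start 1: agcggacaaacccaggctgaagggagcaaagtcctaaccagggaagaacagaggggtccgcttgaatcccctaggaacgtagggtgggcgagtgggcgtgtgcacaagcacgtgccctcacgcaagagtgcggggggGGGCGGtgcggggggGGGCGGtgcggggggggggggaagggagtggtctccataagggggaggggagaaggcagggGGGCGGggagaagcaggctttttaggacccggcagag
Igfbp5: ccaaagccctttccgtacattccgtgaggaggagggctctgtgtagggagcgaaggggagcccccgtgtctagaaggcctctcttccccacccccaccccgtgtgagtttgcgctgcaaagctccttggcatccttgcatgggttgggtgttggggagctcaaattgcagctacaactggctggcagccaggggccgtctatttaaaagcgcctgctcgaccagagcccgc
The *Igfbp2* window before its first start held 3 GC boxes and no TATA box, the stretch before its second start (chr1:72825137-72825321, not shown) held 0 of either, and the *Igfbp5* window held neither set of letters. Of 32851 RefSeq windows of 250 bases upstream of a start, 32.7% held a GC box and 12.4% a TATA box. Among the 15 windows of the members, which matched 9 of the 10 genes, 6 held a GC box and 2 a TATA box.

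Levels of different genes were compared as normalised read counts per kb of the longest coding transcript. The highest 3 members were *Igfbp2*, with a median over the 10 libraries of 1624 per kb, *Igf2* with 1515 and *Igfbp5* with 1435, each above at least 92.7% of all genes tested. Their ranges over the libraries overlapped, so that the order among them was not fixed. *Igfbp3* followed at 326 per kb, clear of both its neighbours in the order. The receptors came next, with 269 per kb for *Igf1r* and 191 for *Igf2r*, and *Igf1* stood at 124. The ranges of *Igf1r* and *Igf2r*, and of *Igf2r* and *Igf1*, overlapped with HT4 included and did not overlap without it. *Ghr* was lower, at 68.8 per kb, and *Ghrh* was at 16.7 per kb, above 14.6% of the genes tested. Of the IGF ligands, *Igf2* lay above *Igf1* per kb in every library.

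**Figure D1:**
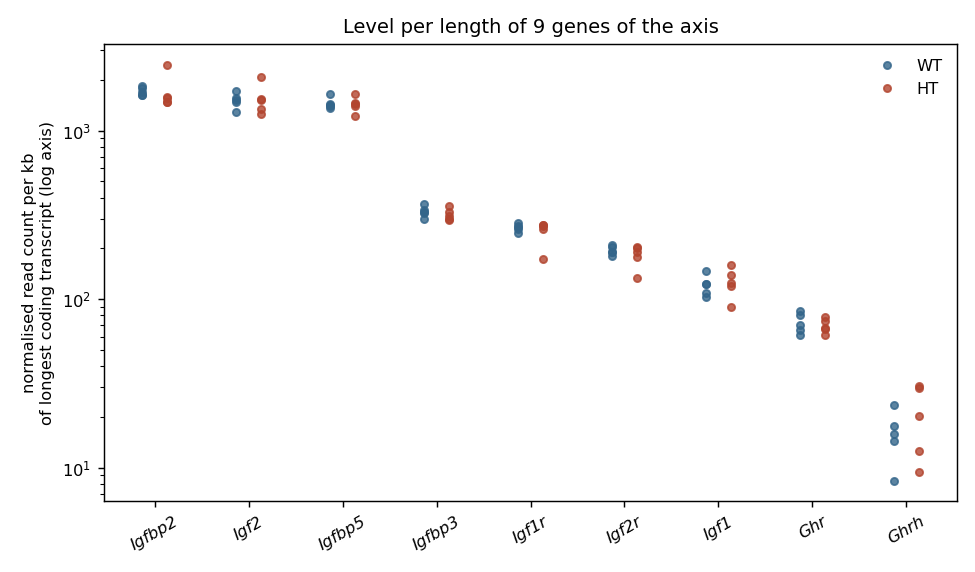
Level of 9 members in each library, in normalised read counts per kb of the longest coding transcript on a log axis, with WT in blue and HT in red, ordered by the median over the 10 libraries. *Igfbp2*, *Igf2* and *Igfbp5* share the top between 1231 and 2463 per kb, and *Ghrh* lies lowest between 8.38 and 30.7 per kb, with *Gh* left out because it is listed at 0 in most libraries.

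*Gh* encodes growth hormone, which is made by somatotrophs of the anterior pituitary (chr11:106300271-106301865, minus strand). It was listed at 0 in 6 of the 10 libraries. In HT it was listed at 0 in HT1, HT2 and HT5, at 18.3 normalised read counts in HT4 and at 42.2 in HT3. In WT it was listed at 0 in WT1, WT3 and WT4, at 838 in WT5 and at 1476 in WT2. The 2 high libraries were both WT, and 3 libraries of each group were at 0, so that the groups overlapped. The log2 fold change was -2.11 with a 95% confidence interval of -7.55 to 3.33 (limma adjusted p = 0.9997, exact permutation p = 0.444). Without WT2 and WT5, left out after the values were seen, it was 1.94. The spread of *Gh* within groups was larger than that of 99.98% of the genes tested.

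Other pituitary genes were read beside *Gh*, as a sign of pituitary tissue left on the brain. Of 16 markers 7 were read, namely *Gh*, *Pomc*, *Cga*, *Tshb*, *Pitx1*, *Lhx3* and *Lhx4*. WT2 held the highest value of 5 of the 7, all but *Lhx3* and *Lhx4*. Its *Pitx1* was at 11.9 normalised read counts, against 4.41 to 9.89 in the other libraries. Its *Lhx4* of 12.8 was the lowest of all, with the others at 18.9 to 34.2. *Lhx3* was at 9.06 in WT2, within 4.83 to 12.2 in WT and beside 6.68 to 21.4 in HT. Its log2 fold change was 0.80 (limma p = 0.0478, the only one under 0.05 of the 6 tested, adjusted p = 0.9997, exact permutation p = 0.0635). *Pomc*, the precursor of the corticotropin of the pituitary and also a product of hypothalamic neurons, was at 865 normalised read counts in WT2 and at 15.7 to 41.5 in the other 9 libraries. *Tshb*, the beta subunit of thyrotropin, was at 98.2 in WT2 and at 0 to 5.20 elsewhere, and *Cga*, the alpha subunit shared by the glycoprotein hormones, was at 86.1 in WT2 and at 0 to 13.4 elsewhere. WT5 thus differed from WT2. Its *Gh* was at 838, yet its *Pomc* was at 27.2, within the range of the other libraries. Its *Cga* of 13.4 and its *Tshb* of 5.20 were each the second highest, far below those of WT2. The summed level of the 6 markers other than *Gh* was 1083 in WT2, 53.0 to 89.7 in the other WT libraries and 61.4 to 92.4 in HT. The part of pituitary tissue in the *Gh* values was not tested.

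**Figure D2:**
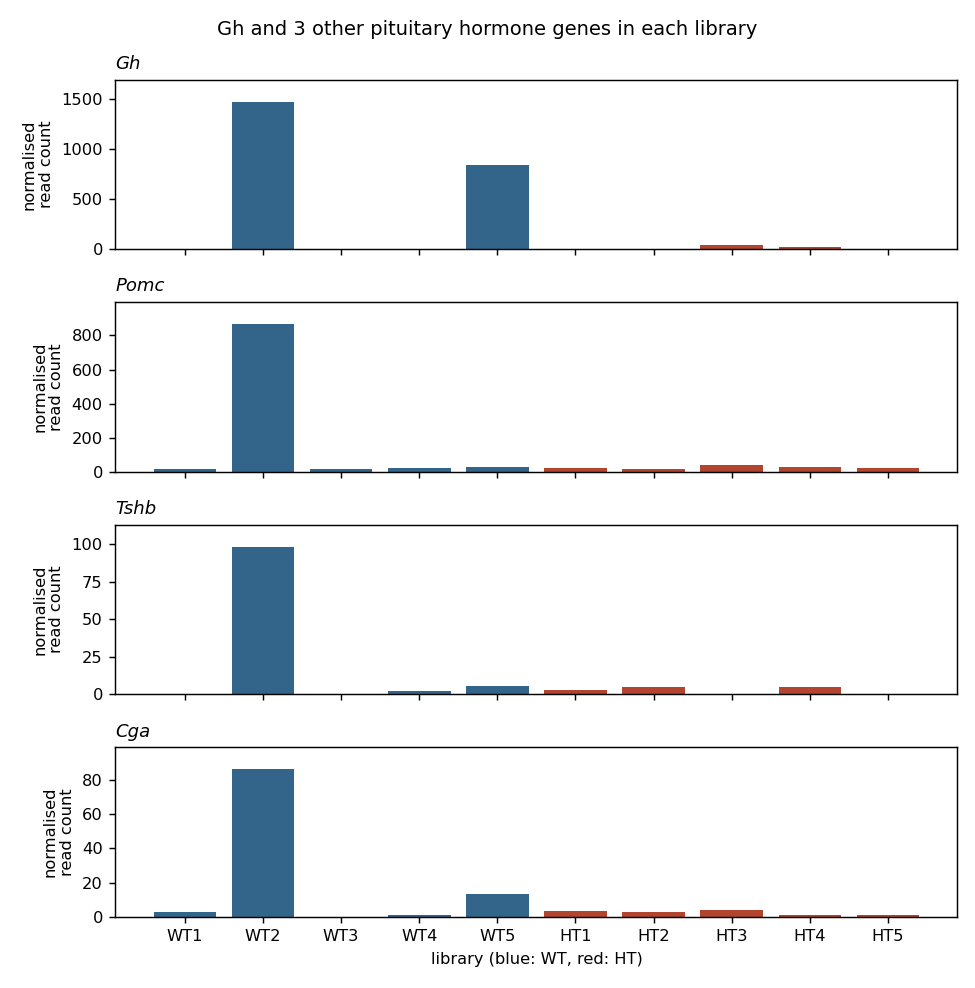
Normalised read counts of *Gh*, *Pomc*, *Tshb* and *Cga* in each library, 1 bar per library, with WT in blue and HT in red and each axis starting at 0. All 4 genes peak in WT2, and WT5 holds *Gh* at 838 with *Pomc* at 27.2.

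*Ghrh*, the hypothalamic releasing hormone (chr2:157329497-157347506, minus strand), was low in all libraries. Its values were 6.49, 15.8, 15.4, 10.5 and 4.87 normalised read counts in HT1 to HT5, and 7.39, 8.16, 12.1, 9.10 and 4.32 in WT1 to WT5. The 2 highest libraries were HT, and the lowest of each group lay close together. Its mean of 9.42 was under the minimum of 10, and a fit with no minimum gave a log2 fold change of 0.27 ± 0.38 (SE, 5 libraries per group) with an exact permutation p of 0.468. The spread within groups exceeded that of 94.1% of genes tested. Of the other markers of hypothalamic neurons, 12 of 13 tested had a log2 fold change above 0, with a median of 0.23 and 0 past the threshold. Their sum was 2284 to 2540 in HT and 1995 to 2879 in WT, where the highest value was that of WT2 and held its *Pomc* of 865. Summed without *Pomc*, which was done after the values were seen, the 12 markers left were at 2259 to 2519 in HT and at 1978 to 2231 in WT, with no overlap. Among single genes tested, 0.629% had groups that did not overlap, and no such share was computed for sums. In this sum *Npy*, which is also made by cortical interneurons, alone held 1134 to 1395 in HT and 921 to 1222 in WT. None of the markers was at 0 in any library. Over the 10 libraries the sum with *Pomc* gave r = -0.024 and rho = 0.018 with *Ghrh* (adjusted p = 0.976 for r, by permutation). Whether these cells account for the *Ghrh* values was not tested. In whole tissue, fewer cells of a type and less RNA per cell cannot be told apart.

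*Igf1* (chr10:87858265-87937042, plus strand) encodes the ligand through which growth hormone acts on many tissues. It was at 877, 840, 1125, 635 and 985 normalised read counts in HT1 to HT5 and at 871, 769, 1043, 872 and 728 in WT1 to WT5. HT held both the highest library, HT3, and the lowest, HT4, with all WT values between them. HT over WT gave a log2 fold change of 0.045 ± 0.14 (SE, 5 libraries per group), with a 95% confidence interval of -0.25 to 0.34 (limma adjusted p = 0.9997, exact permutation p = 0.786). Without HT4 it was 0.16, with an interval of -0.071 to 0.39.

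*Igf2*, an imprinted fetal growth factor, was at 7302, 7167, 5941, 9850 and 6378 normalised read counts in HT1 to HT5. In WT1 to WT5 it was at 7138, 8086, 6997, 7344 and 6111. HT4 was the highest of all libraries, at 147% of the mean of the other HT libraries, and HT3 was the lowest. Its log2 fold change was 0.022 ± 0.12, with an interval of -0.24 to 0.28 (limma adjusted p = 0.9997), and without HT4 it was -0.091, with an interval of -0.27 to 0.084. Of the 31-base words of the *Igf2* transcripts, 63.1% also occur in transcripts of other genes, mainly the overlapping *Gm49394* and the antisense *Igf2os*, so the division of reads among these genes is uncertain. *Igf2os* averaged 36.3 normalised read counts in HT and 28.9 in WT, with groups that overlapped.

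**Figure D3:**
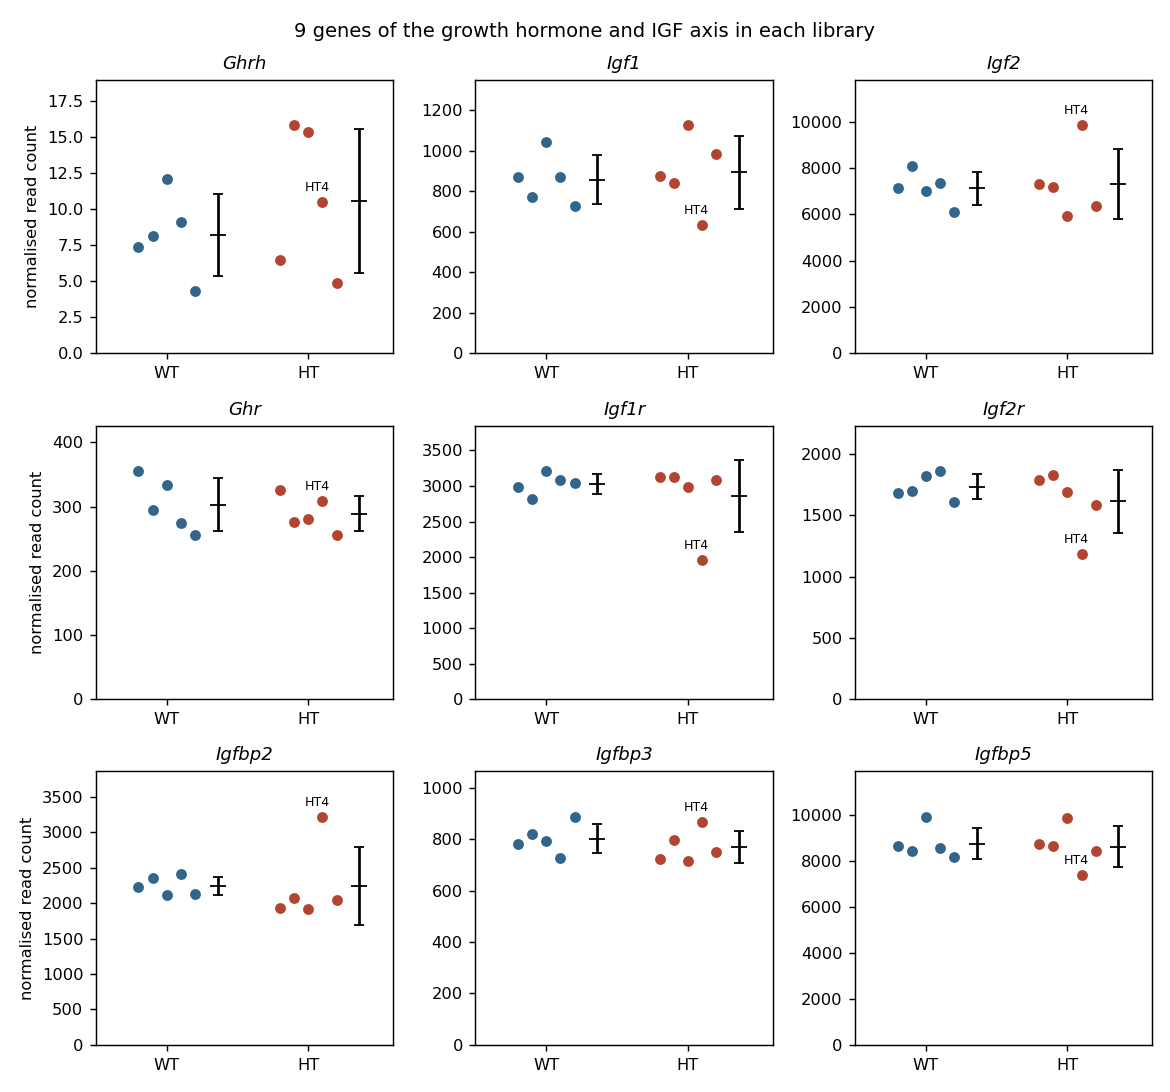
Normalised read counts of 9 members in each library, with WT in blue, HT in red, HT4 labelled, and the mean ± SD of each group (5 libraries) beside its points. The groups overlap in every panel, and HT4 lies lowest for *Igf1*, *Igf1r*, *Igf2r* and *Igfbp5* and highest for *Igf2* and *Igfbp2*.

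*Ghr*, the growth hormone receptor (chr15:3317760-3583492, minus strand), was at 325, 276, 281, 308 and 255 normalised read counts in HT1 to HT5 and at 355, 294, 334, 274 and 256 in WT1 to WT5. The lowest libraries were HT5 and WT5, close to each other, and the highest was WT1. For *Ghr* the log2 fold change was -0.061 ± 0.10, with an interval of -0.29 to 0.17 (limma adjusted p = 0.9997). HT4 did not stand out for this receptor, at 108% of the mean of the other HT libraries.

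*Igf1r* (chr7:67952827-68233668, plus strand) encodes the tyrosine kinase receptor that transmits the IGF signal. It was at 3132, 3126, 2983, 1963 and 3088 normalised read counts in HT1 to HT5 and at 2985, 2822, 3209, 3086 and 3042 in WT1 to WT5. Apart from HT4, at 63.7% of the mean of the other HT libraries, all 9 libraries lay within 2822 to 3209. Over all libraries the log2 fold change was -0.10 ± 0.11, with an interval of -0.35 to 0.14. Without HT4 it was 0.026, with an interval of -0.064 to 0.12, the narrowest interval of any member in that fit.

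*Igf2r*, the clearance receptor for IGF2 (chr17:12682406-12769664, minus strand), was at 1788, 1826, 1691, 1187 and 1584 normalised read counts in HT1 to HT5. In WT1 to WT5 it was at 1682, 1697, 1819, 1860 and 1609. HT4 was again the lowest, at 68.9% of the mean of the other HT libraries, and HT5 and WT5 were next. *Igf2r* had the smallest limma p of the 9 members with all libraries included, with a log2 fold change of -0.12 ± 0.10 (limma adjusted p = 0.9997, exact permutation p = 0.413). Without HT4 the value was -0.0096, with an interval of -0.13 to 0.11. The antisense transcript *Airn*, which silences the paternal *Igf2r* copy in many tissues, overlaps the gene and averaged 40.0 normalised read counts in HT and 46.2 in WT.

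*Igfbp2*, a binding protein abundant in developing brain and cerebrospinal fluid, was the only member with an unadjusted p under 0.05 once HT4 was left out. It was at 1929, 2081, 1925, 3219 and 2046 normalised read counts in HT1 to HT5 and at 2226, 2350, 2117, 2408 and 2127 in WT1 to WT5. Of the HT libraries 4 lay below every WT library, and the remaining one, HT4, lay above every WT library at 161% of the mean of the other 4. With all libraries the log2 fold change was -0.031 ± 0.12, with an interval of -0.30 to 0.23 (exact permutation p = 0.897). Without HT4, the HT mean was 1995 ± 80.1 normalised read counts (SD, n = 4) against 2246 ± 131 in WT (SD, n = 5), or 88.9%, and the groups no longer overlapped, as held for 2.96% of all genes tested without HT4. It then had a log2 fold change of -0.17 ± 0.050, with an interval of -0.28 to -0.062. Without HT4 the limma p of *Igfbp2* was 0.00431 and an exact permutation test gave p = 0.0159, the lowest value open to 4 against 5 libraries. An unadjusted p under 0.05 was reached by 8.4% of all genes tested without HT4, and an adjusted p under 0.05 by 0.0118% of them. *Igfbp2* did not pass the adjustment over all genes (limma adjusted p = 0.446).

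Markers of other cell types are given beside *Igfbp2*, and 53.6% of all genes tested had a log2 fold change below 0. Of 14 choroid plexus markers, 13 had a log2 fold change below 0 with a median of -0.28, 5 had an unadjusted p under 0.05 (35.7%, beside 3.41% of all genes tested) and 0 passed the threshold, and their sum was 8962 to 12028 normalised read counts in HT against 12768 to 16879 in WT. Of 14 microglial markers, 14 were below 0 with a median of -0.24, 0 at an unadjusted p under 0.05 (limma) and 0 past the threshold. Their sum was 2261 to 3480 in HT against 2451 to 4110 in WT. Of 6 erythroid markers tested, 6 were above 0 with a median of 0.48, 0 at an unadjusted p under 0.05 (limma) and 0 past the threshold, and the sum of the 7 read was 5960 to 13733 in HT against 4528 to 13889 in WT. Without HT4 the choroid plexus, microglial and erythroid medians were -0.30, -0.34 and 0.42. No marker of these lists was at 0 in any library. In HT4 the choroid plexus sum was 12006, within the range of the other HT libraries. Over the 10 libraries Pearson's r of *Igfbp2* on log2 values was 0.229 with the choroid plexus sum, 0.640 with the microglial and 0.067 with the erythroid. The adjusted p values by permutation were 0.814, 0.199 and 0.976. Without HT4, r was 0.655, 0.814 and -0.479. Whether these cells account for the *Igfbp2* values was not tested.

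*Igfbp3*, the main carrier of IGFs in blood (chr11:7206086-7213923, minus strand), was at 723, 796, 717, 868 and 751 normalised read counts in HT1 to HT5 and at 783, 820, 795, 729 and 887 in WT1 to WT5. With all libraries it had the smallest spread within groups of the 10 members, larger than that of 28.0% of genes tested, whereas without HT4 *Igf1r* had the smallest. The log2 fold change was -0.059 ± 0.071, with an interval of -0.21 to 0.094 (limma adjusted p = 0.9997), and without HT4 it was -0.10, with an interval of -0.24 to 0.034.

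*Igfbp5*, a binding protein that sits in the extracellular matrix, was at 8722, 8671, 9871, 7393 and 8432 normalised read counts in HT1 to HT5. In WT1 to WT5 it was at 8662, 8454, 9915, 8570 and 8165. The 2 highest libraries, WT3 and HT3, came from different groups and differed by little, and HT4 was the lowest. WT3 also had the highest sum of 14 meningeal markers, at 36590 normalised read counts against 9416 to 18816 in the other libraries, with no marker at 0. HT3, with nearly the same *Igfbp5*, had a meningeal sum of 10003. Over the 10 libraries r between that sum and *Igfbp5* was 0.279 (adjusted p = 0.735 by permutation), and -0.592 without WT2 and WT3. Whether meningeal cells account for the *Igfbp5* values was not tested. For *Igfbp5* the log2 fold change was -0.025 ± 0.074, with an interval of -0.18 to 0.13 (limma adjusted p = 0.9997), and without HT4 it was 0.028.

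The intervals bound the differences that these libraries leave room for. With all libraries included, the intervals of the 8 members other than *Gh* and *Ghrh* covered a ratio of HT to WT from 0.785 for *Igf1r* at the low end to 1.27 for *Igf1* at the high end. For *Gh* and *Ghrh* the spread between libraries left the ratio open over a wider range, down to 0.00534 and up to 10.1 for *Gh*. Differences between mice and counting noise cannot be told apart in this spread.

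**Figure D4:**
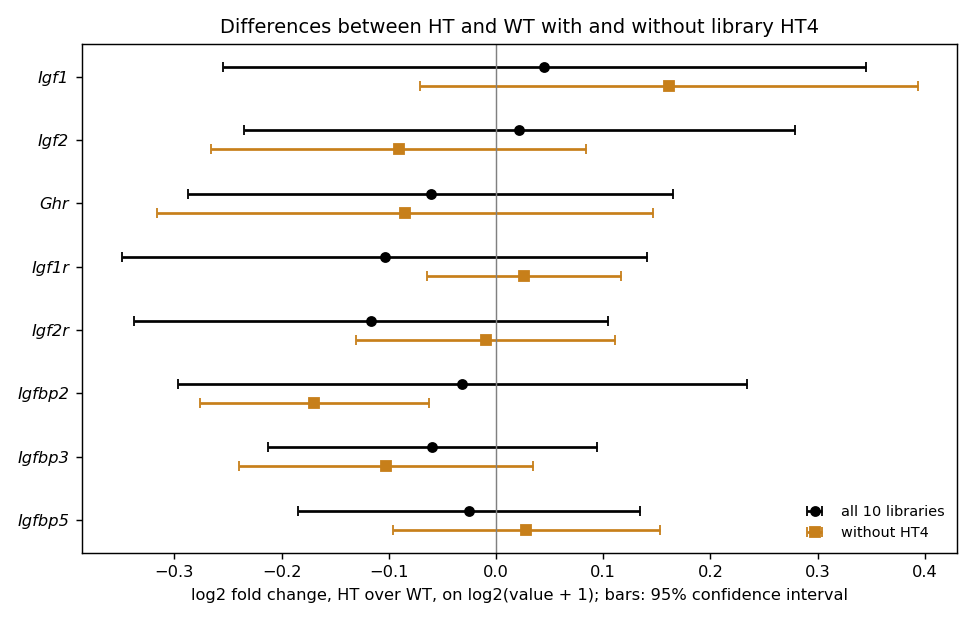
Log2 fold change of 8 members, HT over WT, with 95% confidence intervals from limma, for all 10 libraries (black circles) and without HT4 (orange squares). All black intervals include 0, and without HT4 the interval of *Igfbp2*, -0.28 to -0.062, lies below 0.

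Relations between members were also read from library to library. Over the 10 libraries 105 relations were computed on log2 values, 45 between members and 60 between a member and the summed markers of a cell type, and 2 passed an adjusted p of 0.05 by Pearson's r and 0 by Spearman's rho. *Igf1* and *Igfbp5* rose and fell together, with r = 0.904 (permutation p = 4.9e-04, adjusted p = 0.0331) and rho = 0.758 (permutation p = 0.0143, adjusted p = 0.317). Without HT3 and HT4, the libraries farthest from the median of *Igf1*, r was 0.735, and without HT4 alone it was 0.837. *Igf2* followed the summed level of 14 vascular markers, with r = 0.887 (permutation p = 6.3e-04, adjusted p = 0.0331) and rho = 0.758 (permutation p = 0.0151, adjusted p = 0.317). Without the 2 libraries farthest from the median of the vascular markers, again HT3 and HT4, r was 0.728. For the summed choroid plexus markers r was 0.095 and rho 0.079 (adjusted p = 0.937 and 0.968 by permutation). For the summed meningeal markers r was 0.397 and rho 0.697 (adjusted p = 0.618 and 0.395 by permutation), and r was 0.945 without WT2 and WT3, the libraries farthest from their median. With 5 libraries in a group, the relations were not computed within groups.

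**Figure D5:**
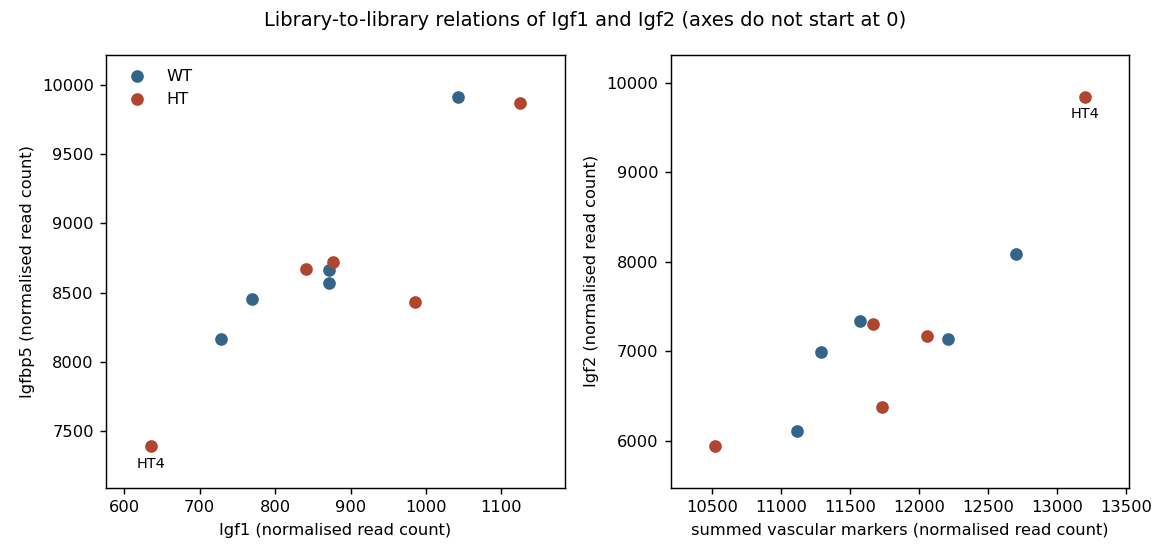
Normalised read counts of *Igfbp5* against *Igf1* (left) and of *Igf2* against the summed vascular markers (right), 1 point per library, WT in blue and HT in red, on axes that do not start at 0. HT4 lies at one end of both plots, with *Igf1* at 635 and *Igf2* at 9850, and the 2 groups are mixed along both relations.

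Other relations had large r but did not pass the adjustment. *Igf2* and *Igfbp2* gave r = 0.855 (adjusted p = 0.150 by permutation), which fell to 0.591 without HT4. *Igf1r* and *Igf2r* gave r = 0.925 with rho = 0.552 (adjusted p = 0.156 by permutation), and r fell to 0.427 without HT4, so that most of this value rested on 1 library. The neighbours *Igfbp2* and *Igfbp5* gave r = -0.716 (adjusted p = 0.170 by permutation), or -0.401 without HT4. *Igf2* and the summed microglial markers gave r = 0.755 and rho = 0.915 (adjusted p = 0.150 and 0.0504 by permutation).

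The genes most like each member were found by Pearson's r on log2 values over the 10 libraries, with no test. For *Gh* they were *Trmu* (r = 0.956), *Snx24*, *1110059G10Rik*, *Pop4* and *Terf2* (r = 0.881), none of which is a pituitary marker of the list. As *Gh* was high in WT2 and WT5 only, these values rest mainly on those libraries. *Trmu* was at 490 in WT2 and 487 in WT5, against 399 to 442 normalised read counts in the others, whereas *Pomc* was high in WT2 alone. For *Igf1* they were *Slc24a2* (r = 0.968), *Map1a*, *Iqsec1*, *Tmem94* and *Guf1* (r = 0.942). *Igf2* was most like *Orai3* (r = 0.978), *Rps4l*, *Mmp14*, *Afap1l2* and *Dolk* (r = 0.946). *Igfbp2* was most like *Prdx4* (r = 0.967), *Npc2*, *Fabp7*, *Plekho1* and *Gart* (r = 0.954), of which *Fabp7* encodes the fatty acid binding protein of radial glia. Without HT4, r was 0.947 for *Igf1* with *Slc24a2*, 0.947 for *Igf2* with *Orai3* and 0.879 for *Igfbp2* with *Prdx4*. Each value is among the highest of the 17020 genes compared with that member.

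The rest of the pathway was read from 5 lists of 68 genes in all, of which 62 were tested. Of these 27 had a log2 fold change above 0 and 35 below 0, 0 passed the threshold, and 3 had an unadjusted p under 0.05, or 4.84% against 3.41% of all genes tested. Their median was -0.015, beside -0.0074 for all genes tested. Without HT4 the balance turned to 34 above 0 with a median of 0.014, 7 genes had an unadjusted p under 0.05 beside 8.4% of all genes tested, and 0 passed the threshold. With all libraries the 3 genes were *Sst*, *Sstr1* and *Shc1*.

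Genes that control growth hormone release held 2 of the 3, among 8 tested, of which 5 were above 0 with a median of 0.094. *Sst*, or somatostatin, the peptide that holds back growth hormone release and marks a class of cortical interneurons, was at 2396, 2562, 2649, 3402 and 3015 normalised read counts in HT1 to HT5 and at 2391, 2510, 2195, 2376 and 2629 in WT1 to WT5. Its highest libraries were HT4 and HT5, and the groups overlapped. HT over WT was 0.20 ± 0.088 on the log2 scale (limma p = 0.0371, adjusted p = 0.9997, exact permutation p = 0.0635), and without HT4 it was 0.13 ± 0.065. *Sstr1*, a somatostatin receptor, was at 439 to 508 in HT and at 392 to 464 in WT, with a log2 fold change of 0.16 ± 0.069 (limma p = 0.0371, adjusted p = 0.9997, exact permutation p = 0.0238). Neither passed the threshold over all genes.

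Genes that carry the growth hormone signal were spread around 0, with 3 of 10 above 0. The smallest p values belonged to *Stat5b*, the transcription factor activated by GHR, at 0.12 ± 0.059 on the log2 scale (exact permutation p = 0.0397), and to *Ptpn1*, a phosphatase of the pathway, at -0.060 ± 0.054 (exact permutation p = 0.230). Without HT4 the log2 fold changes were 0.092 for *Stat5b* and -0.023 for *Ptpn1*. Of 28 genes of IGF and insulin signalling 10 were above 0 with a median of -0.015, and without HT4 the balance turned, with 19 above 0 and a median of 0.028. *Shc1*, an adaptor of the receptor, was at 363 to 415 normalised read counts in HT and at 405 to 462 in WT, with a log2 fold change of -0.16 ± 0.067 (limma p = 0.0350, adjusted p = 0.9997, exact permutation p = 0.0159). Next came *Irs4*, an insulin receptor substrate, at 0.13 ± 0.080 on the log2 scale (exact permutation p = 0.143), and at 0.18 without HT4.

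Among the other IGF carriers and their proteases 7 of 8 were above 0 with all libraries and 5 without HT4, and *Igfbp4* was below 0 in both. *Igfbp4*, an inhibitory binding protein, was at 1499, 1583, 1466, 2049 and 1678 normalised read counts in HT1 to HT5 and at 1859, 1916, 1796, 1906 and 1713 in WT1 to WT5. As for *Igfbp2*, HT4 was the highest library of all and the other HT libraries lay below every WT library. HT over WT was -0.16 ± 0.082 on the log2 scale with all libraries (limma adjusted p = 0.9997, exact permutation p = 0.111). Without HT4 it was -0.24 ± 0.052 (limma p = 3.96e-04, adjusted p = 0.270, exact permutation p = 0.0159), so that it did not pass the threshold either way. Of all genes tested without HT4, 2.96% had groups that did not overlap and 8.4% had an unadjusted limma p under 0.05. *Igfbp4* is named for having 1 of the 2 smallest p values of its list. *Igfbp6* was at 0.28 ± 0.18 on the log2 scale (exact permutation p = 0.143), and at 0.15 without HT4. Among 8 genes of *Igf2* control, including its imprinted neighbour *H19*, 2 were above 0, and the smallest p values were those of *Ctcf*, the insulator protein of the locus, at -0.078 ± 0.055 (exact permutation p = 0.143), and *Igf2bp1*, an RNA binding protein of *Igf2* transcripts, at -0.23 ± 0.18 (exact permutation p = 0.278). Without HT4 the log2 fold changes were -0.050 for *Ctcf* and -0.090 for *Igf2bp1*.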

How the data were processed

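RNA from the whole brain of 10 mice was sequenced after poly-A selection with a stranded kit. Per the study's methods and the submitters' processing notes, the authors quantified reads with Salmon 1.1.0 on GRCm38 with GC bias correction, imported gene-level estimates with tximport and divided them by DESeq2 size factors, so the deposited table holds signal values, normalised read counts that are not whole numbers. The strand setting, annotation release and filter on low genes are not given in the sources used here. Of 18444 Ensembl IDs 18431 matched GENCODE M21, which gave symbols, positions and lengths.

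Values were analysed as log2(value + 1), which understates changes of low genes. The 17020 genes with a mean of at least 10 were tested with limma 3.58.1 in R 4.3.3 (trend, robust, two-sided, Benjamini-Hochberg, threshold 0.05) and 1424 were left out. Errors after ± in log2 fold changes are standard errors. Single genes were also tested by a two-sided exact permutation test, and relations by 100000 permutations. The workflow was tested on simulated data. Depth is known only as normalised totals of 27.2 M to 29.03 M (M, 1000000), so precision was taken from the spread between libraries. No count test was run. No source states that libraries of the same number share a litter or day. Members and lists were chosen with earlier results of these data known. 1 pituitary marker is not reported here, and relations with the shortened pituitary list were not tested. The genes named are all members, *Arid1b*, the 2 genes with the smallest p of each pathway list, and the 5 genes most like *Gh*, *Igf1*, *Igf2* and *Igfbp2*. *Npy* and *Trh* and the pituitary genes were named after their values were seen.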

Additional observations from a re-analysis of the deposited data

Results flagged for a closer look

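Single libraries that stood far from the rest of their group were sought in groups of 5 libraries with Dixon's criterion. Of 52 groups checked 3 met it, and chance alone gives about 1 in 20. For *Igf1r* in HT the gap of HT4 below the nearest library was 0.873 of the range of the group, with HT4 at 1963 and the other HT libraries at 2983 to 3132 normalised read counts. For *Igfbp2* in HT the gap of HT4 above the nearest library was 0.879 of the range, with HT4 at 3219 and the others at 1925 to 2081. For *Igfbp5* in WT the gap of WT3 above the nearest library was 0.716 of the range, with WT3 at 9915 and the others at 8165 to 8662.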

How the results depend on the processing

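The counts of members and of pathway genes past the threshold were 0 under all 22 alternatives. Over all genes the count was 0, and it became 2 with library weights, 1 with a length trend removed, 0 to 2 over the fits that left out 1 library each (2 without HT4), and 2 without HT4 and with the length trend removed. The number of relations past the threshold was 2, against 1 after quantile normalization, 1 with equal totals and 1 with the length trend removed. Leaving out WT2 and WT5 and leaving out HT4 with the trend removed were chosen after seeing the data. Without WT2 and WT5 the log2 fold change turned to 1.94 for *Gh*, -0.077 for *Igf1* and 0.00071 for *Igfbp3*. With library weights it turned to 1.7e-05 for *Igf1r*, -0.086 for *Igf2* and 0.013 for *Igfbp5*, and without HT4 and with the trend removed to -0.10 for *Igf2* and 0.0036 for *Igfbp5*. Leaving out 1 library each gave -0.045 to 0.16 for *Igf1*, -0.14 to 0.026 for *Igf1r*, -0.091 to 0.092 for *Igf2*, -0.17 to 0.016 for *Igfbp2* and -0.076 to 0.028 for *Igfbp5*, none past the threshold. The cause was not tested. *Arid1b* passed the threshold in 4 alternatives, with adjusted p from 1.4e-07 to 6.9e-04 (limma). *Gh*, *Ghr*, *Igf2r* and *Igfbp3* kept their sign when any 1 library was left out, with *Gh* from -3.12 to -0.49. *Ghrh* was fitted only with no minimum. A replicate block gave 0 genes past the threshold and 558 genes at an unadjusted p under 0.05, against 580 with no block. The deviations of same-numbered libraries correlated at -0.104 to 0.093, none above 0.1, and no source pairs them, so the block was not used further. As a hint from the data only, for 4 of 5 numbers the highest correlation was with the library of the same number. With 5 mice a group and depth known only as normalised totals, differences could be missed, and the smallest detectable difference was not computed. The intervals given are for single genes, before adjustment over all genes, and are not limits of detection. With all libraries the interval of *Arid1b* was -0.91 to -0.45 on the log2 scale, yet its adjusted p was 0.390 (limma).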

Other observations

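Of the 13 hypothalamic markers tested, which hold peptides and transcription factors, 12 had a log2 fold change above 0, while 53.6% of all genes tested were below 0. The exception was *Pomc*, at -0.75, whose WT2 value is given above. None passed the threshold, and *Npy* and *Trh* alone had an unadjusted p under 0.05, or 15.4% beside 3.41% of all genes tested. *Npy*, the appetite-promoting neuropeptide Y that is also made by cortical interneurons, was at 1134 to 1395 normalised read counts in HT and at 921 to 1222 in WT, with a log2 fold change of 0.23 (limma p = 0.015, exact permutation p = 0.0397). *Trh*, the thyrotropin-releasing hormone, was at 133 to 163 in HT and at 108 to 138 in WT, with a log2 fold change of 0.31 (limma p = 0.011, exact permutation p = 0.0159). The adjusted p was 0.9997 for both (limma).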
